A study of Mus musculus with 10 samples.

Results

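The MFGE8 and TAM bridging system was followed in the brains of mice with Aldara-induced skin inflammation. It was taken as 10 genes, namely the bridging molecules Mfge8, Gas6 and Pros1 and the receptors Axl, Mertk, Tyro3, Itgav, Itgb5, Megf10 and Timd4. Each gene was found by its symbol in the platform annotation, each had 1 probeset, and no probeset was shared with another gene. They are 10 of 19938 genes measured. RNA from the perfused whole brains of 10 female C57BL/6 mice was hybridised to GeneChip arrays, each mouse having its own. The mice were wild-type animals aged 6 to 8 weeks. Aldara cream, which holds 5% imiquimod, a ligand of the RNA sensor TLR7, was given to 5 mice, and aqueous control cream to the other 5. Cream was spread on shaved back skin at 80 mg per dose, with 5 doses spaced 24 h apart, and brains were removed 24 h after the last. The cream also holds isostearic acid, which the control cream lacks, so imiquimod and the vehicle cannot be told apart here.

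Apoptotic cells display phosphatidylserine on their outer surface, and phagocytes recognise it either directly or through soluble bridging molecules. MFGE8, which astrocytes and phagocytes release, binds phosphatidylserine at one end and an integrin made of the Itgav and Itgb5 products at the other. GAS6 and protein S (Pros1) bind phosphatidylserine and activate the TAM receptor tyrosine kinases Tyro3, Axl and Mertk, which drive engulfment and dampen interferon and Toll-like receptor signalling. In the brain these routes serve the removal of dying neurons, of myelin debris and of synapses by microglia and astrocytes.

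The system was chosen with earlier results of these arrays in view, in which Mfge8 stood out between the same groups. The differences of its genes between groups are therefore given as descriptions, with 95% intervals and no p-value. Values are log2 RMA expression values, as normalised by the authors, and a difference is the mean of the Aldara-treated mice minus that of the control mice. A gene was called where the adjusted p of limma's test, run over all 23410 probesets with a symbol, was under 0.05. On this rule 5 of the 10 genes were higher in Aldara-treated mice, where 11.8% of all genes were, 3 were lower, where 22.4% of all genes were, and 2 were not called. In either direction 34.2% of all genes were called. Over probesets the shares were 33.4% in either direction, 12.4% higher and 21% lower. The groups did not overlap for 6 of the 10 genes, 4 with Aldara above and 2 with Aldara below, against 26.4% of all genes (9.93% above and 16.4% below) and 25.8% of probesets (10.5% above and 15.3% below). Nothing is read from these counts, since the choice of genes used this contrast. Array medians lay between 8.10 and 8.14 in control mice and between 8.16 and 8.19 in Aldara-treated mice, and the median difference over all genes was -0.05. With the array medians made equal, the counts became 4 higher and 5 lower. The tissue was checked by 10 neuron markers, whose mean value was 11.97 to 12.02 in control mice and 11.86 to 11.89 in Aldara-treated mice.

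The sequence around the transcription start is shown for the 4 genes with the largest absolute differences, 1 lower and 3 higher, so that the promoters of genes that moved in opposite directions can be compared. The windows are from RefSeq on GRCm38.p6, hold 250 bases before and 50 after the annotated start, and read 5′ to 3′ on the gene's strand. Capitals mark every match to 1 of 7 motifs on either strand.
Mfge8, chr7:79149011-79149310, minus strand: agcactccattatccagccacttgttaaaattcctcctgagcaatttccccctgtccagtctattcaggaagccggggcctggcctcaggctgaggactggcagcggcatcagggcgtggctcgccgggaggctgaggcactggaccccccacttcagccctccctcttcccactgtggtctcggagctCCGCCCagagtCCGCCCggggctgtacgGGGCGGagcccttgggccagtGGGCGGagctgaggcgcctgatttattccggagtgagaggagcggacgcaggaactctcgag
Pros1, chr16:62854057-62854356, plus strand: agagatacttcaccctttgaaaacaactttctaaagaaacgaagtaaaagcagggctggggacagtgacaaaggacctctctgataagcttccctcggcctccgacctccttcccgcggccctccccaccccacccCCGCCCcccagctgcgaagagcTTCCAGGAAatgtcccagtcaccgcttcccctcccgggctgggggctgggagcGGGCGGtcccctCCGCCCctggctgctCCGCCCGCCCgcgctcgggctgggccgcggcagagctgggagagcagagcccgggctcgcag
Axl, chr7:25788684-25788983, minus strand: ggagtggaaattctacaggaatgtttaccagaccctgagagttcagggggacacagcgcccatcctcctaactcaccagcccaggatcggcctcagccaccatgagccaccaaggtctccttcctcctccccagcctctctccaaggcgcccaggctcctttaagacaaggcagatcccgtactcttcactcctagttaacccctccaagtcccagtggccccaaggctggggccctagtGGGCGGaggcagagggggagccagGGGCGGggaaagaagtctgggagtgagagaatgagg
Itgb5, chr16:33829415-33829714, plus strand: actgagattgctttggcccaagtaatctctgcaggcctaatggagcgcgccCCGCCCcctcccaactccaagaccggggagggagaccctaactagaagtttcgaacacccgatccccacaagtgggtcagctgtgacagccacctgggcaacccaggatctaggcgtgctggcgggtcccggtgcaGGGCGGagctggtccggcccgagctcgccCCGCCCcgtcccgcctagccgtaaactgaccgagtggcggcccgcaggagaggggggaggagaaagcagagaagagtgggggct
All 4 windows hold the GC box GGGCGG, with 4 matches for Mfge8, 5 for Pros1, of which a neighbouring pair overlaps, 2 for Axl and 3 for Itgb5. It was present in 35.7% of 32851 promoter windows of the same length. Pros1 alone of the 4 holds the gamma-activated site TTCNNNGAA, which STAT factors bind and which 8.3% of all windows hold. The interferon-stimulated response element, written as GAAA, NN and again GAAA, held by 3.44% of all windows, was found in none of the 4, nor were the NF-kB site, written as GGGA, NN and TTCC (1.47% of all windows), the PU.1 site GAGGAAGT (3.2%), the AP-1 site TGANTCA (7.81%) and the nuclear receptor half-site AGGTCA (16.3%). A window was at hand for 9 of the 10 genes, and over these 9 the GC box was found in 8, and the gamma-activated site, the PU.1 site and the nuclear receptor half-site in 1 each. A match describes letters only, and a missing match says nothing of sites elsewhere in the gene.

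The bridging molecules changed in opposite directions. Mfge8 had log2 values of 10.26, 10.17, 10.27, 10.28 and 10.37 in the control mice and of 9.32, 9.33, 9.56, 9.58 and 9.26 in the Aldara-treated mice, replicates 1 to 5 in each case. Every Aldara-treated mouse lay below every control mouse, and Aldara replicates 3 and 4 stood above the other three. The difference was -0.86 (standard error 0.06), which left 0.551 of the control level (95% interval 0.501 to 0.607), and no other of the 19938 genes had a lower difference. In whole brain, fewer cells of a type and less RNA per cell cannot be told apart.
Pros1, the gene of the anticoagulant protein S and a ligand of Mertk and Tyro3, went the other way. Its log2 values were 7.65, 7.54, 7.72, 7.71 and 7.67 in the control mice and 8.75, 8.46, 8.48, 8.59 and 8.41 in the Aldara-treated mice. The groups were well apart, with Aldara replicate 1 the highest. Pros1 was 1.84-fold higher (95% interval 1.68 to 2.02), a log2 difference of 0.88 (95% interval 0.75 to 1.01), and 386 genes had a higher difference.
Gas6, the ligand shared by all TAM receptors, had a smaller difference. It had log2 values of 10.03, 9.88, 9.95, 9.99 and 9.95 in the control mice against 9.82, 9.80, 9.78, 9.81 and 9.89 in the Aldara-treated mice. The groups touched, since Aldara replicate 5 lay at the level of control replicate 2. The difference was -0.14 (95% interval -0.22 to -0.07). Of all genes, 15.3% had a lower difference than Gas6.

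**Figure D1:**
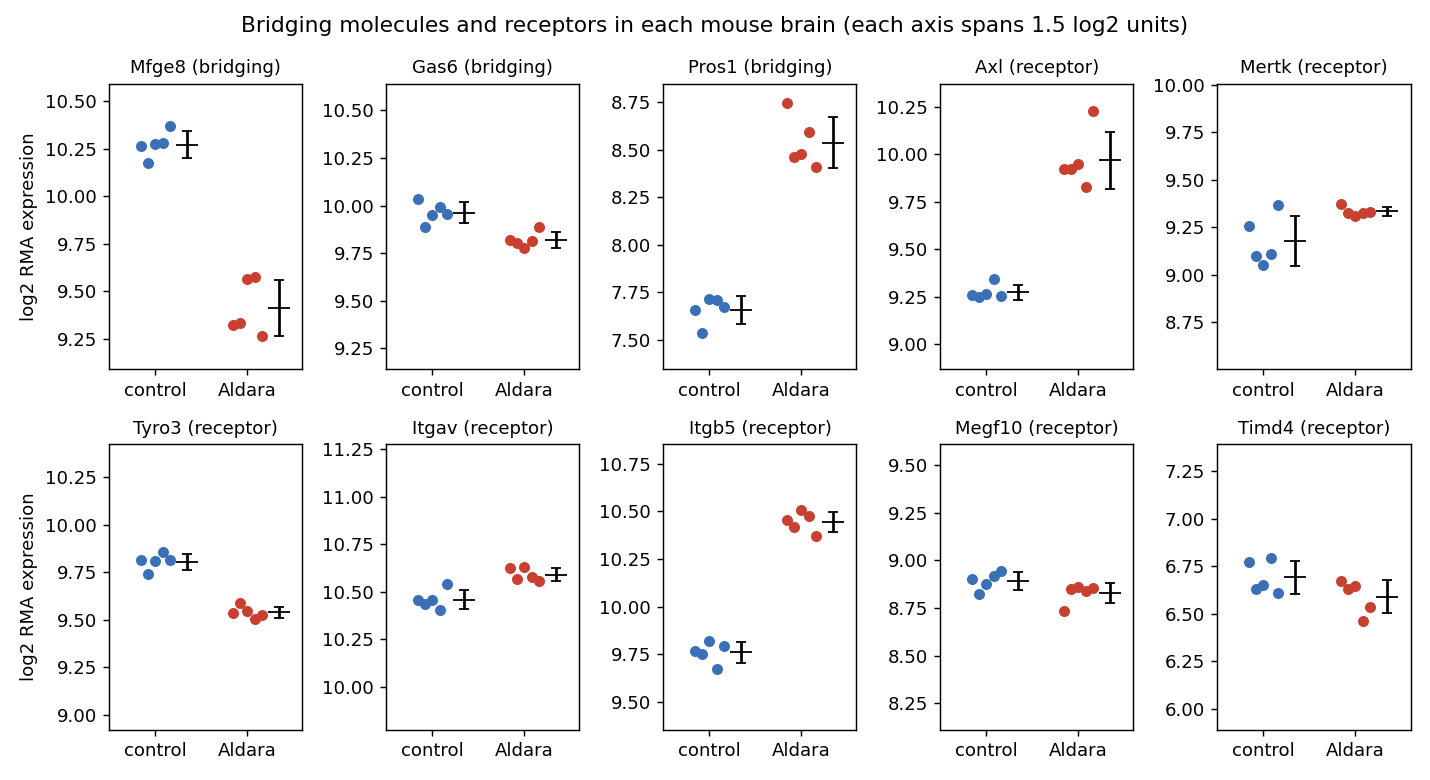
Log2 RMA expression values of the 3 bridging molecules and 7 receptors in each of 5 control brains (blue) and 5 Aldara brains (red), with the mean and SD of each group in black. Every axis spans 1.5 log2 units, so the heights of the steps can be compared, and Mfge8 steps down by 0.86 where Pros1 steps up by 0.88.

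Among the TAM receptor kinases, Axl was higher and Tyro3 lower, and Mertk had a smaller difference. Axl, which interferon and Toll-like receptor signalling are known to induce in myeloid cells, had log2 values of 9.26, 9.25, 9.26, 9.35 and 9.25 in the control mice and of 9.92, 9.92, 9.95, 9.83 and 10.23 in the Aldara-treated mice. All Aldara-treated mice lay above all control mice, and Aldara replicate 5 was the highest. Axl was 1.62-fold higher (95% interval 1.47 to 1.78), a log2 difference of 0.69 (95% interval 0.56 to 0.83), which became 0.63 without Aldara replicate 5.
Tyro3, the TAM receptor most abundant in neurons, had log2 values of 9.81, 9.74, 9.81, 9.86 and 9.81 in the control mice against 9.54, 9.59, 9.54, 9.50 and 9.53 in the Aldara-treated mice. All Aldara-treated mice lay below all control mice, and neither group spread widely. The difference was -0.27 (95% interval -0.33 to -0.20), and 417 of the 19938 genes had a lower one.
Mertk, the receptor through which macrophages, microglia and astrocytes engulf apoptotic material, had log2 values of 9.25, 9.10, 9.05, 9.11 and 9.37 in the control mice and of 9.37, 9.32, 9.31, 9.33 and 9.33 in the Aldara-treated mice. The groups overlapped, because control replicate 5 reached the level of the Aldara-treated mice, which were themselves close together (SD 0.02, n = 5, against 0.13, n = 5, in control mice). The difference was 0.16 (95% interval 0.04 to 0.27). Its call depended most on single arrays, as it was kept in 2 of 10 fits that each left out 1 array. Each of the other 7 called genes kept its call in all 10, which describes the arrays and is no test of these genes.

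Both subunits of the MFGE8-binding integrin followed here were higher, the beta subunit more so. Another beta subunit, Itgb3, counted below among the further recognition receptors, was not called, at 0.07 (95% interval -0.02 to 0.15). Itgb5 had log2 values of 9.76, 9.75, 9.82, 9.67 and 9.79 in the control mice and of 10.45, 10.42, 10.51, 10.47 and 10.37 in the Aldara-treated mice. The groups lay far apart with little spread in either. Itgb5 was 1.61-fold higher (95% interval 1.52 to 1.70), a log2 difference of 0.69 (95% interval 0.61 to 0.76).
Itgav, the alpha subunit that also pairs with other beta subunits, had log2 values of 10.46, 10.44, 10.46, 10.40 and 10.54 in the control mice and of 10.63, 10.57, 10.63, 10.58 and 10.56 in the Aldara-treated mice. Control replicate 5 was the only control mouse that came close to the Aldara-treated mice, and its level lay just below the lowest of them. The difference was 0.13 (95% interval 0.06 to 0.20), and 0.08 for Itgav with the array medians made equal, where its call was kept.
The other 2 receptors were not called. Megf10, through which astrocytes engulf synapses, had log2 values of 8.82 to 8.94 in the control mice (median 8.90) and of 8.74 to 8.86 in the Aldara-treated mice (median 8.85), a difference of -0.06 (95% interval -0.14 to 0.01). Timd4, a phosphatidylserine receptor of resident tissue macrophages, had log2 values of 6.61 to 6.79 in the control mice (median 6.65) and of 6.46 to 6.67 in the Aldara-treated mice (median 6.63), a difference of -0.10 (95% interval -0.21 to 0.01). For both genes the groups overlapped, and whether Timd4 stood above background is not known. With the array medians made equal both were called lower, at -0.11 for Megf10 and -0.15 for Timd4.

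The 10 genes were then put in order of their differences. Only neighbours in this order were compared here, so genes at the ends of a run may still differ. Pros1, Axl and Itgb5 formed the top, and the changes of neighbours within it did not differ beyond their spread, with an interval of -0.08 to 0.45 between Axl and Pros1 and of -0.21 to 0.23 between Itgb5 and Axl. Mertk and Itgav followed, lower than Itgb5 by 0.53 for Mertk (95% interval 0.38 to 0.68) and not apart from each other (95% interval -0.08 to 0.13). Megf10, Timd4 and Gas6 came next without separation between neighbours. Tyro3 lay below Gas6 (95% interval of the gap 0.05 to 0.19), and Mfge8 lay below Tyro3 by 0.59 (95% interval 0.42 to 0.77).

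Bridging molecules were then related to their known receptors by the change of the receptor minus the change of the bridging molecule, in 7 pairs. For MFGE8 the gap was wide, at 0.99 for Itgav (95% interval 0.84 to 1.14) and 1.54 for Itgb5 (95% interval 1.41 to 1.68). Mfge8 was at -0.86, and its fall made up most of the gap for Itgav, which was at 0.13. Itgb5 was at 0.69, so both sides contributed to its gap. For Gas6 the gap depended on the receptor. The change of Axl exceeded that of Gas6 by 0.84 (95% interval 0.70 to 0.97) and that of Mertk did so by 0.30 (95% interval 0.16 to 0.43), whereas Tyro3 differed by -0.12 (95% interval -0.19 to -0.05). For Pros1 the ligand gained more than either receptor, with -0.72 for Mertk (95% interval -0.92 to -0.53) and -1.15 for Tyro3 (95% interval -1.30 to -0.99). Taken mouse by mouse against the control mean, Mertk minus Pros1 ran from -0.89 to -0.60 in Aldara-treated mice and from -0.18 to 0.18 in control mice, and Itgb5 minus Mfge8 from 1.41 to 1.64 against -0.09 to 0.09. Only Tyro3 minus Gas6 overlapped between the groups, with -0.20 to -0.06 against -0.06 to 0.02. These pairs share genes, and the gaps compare changes, not amounts of ligand and receptor.

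**Figure D2:**
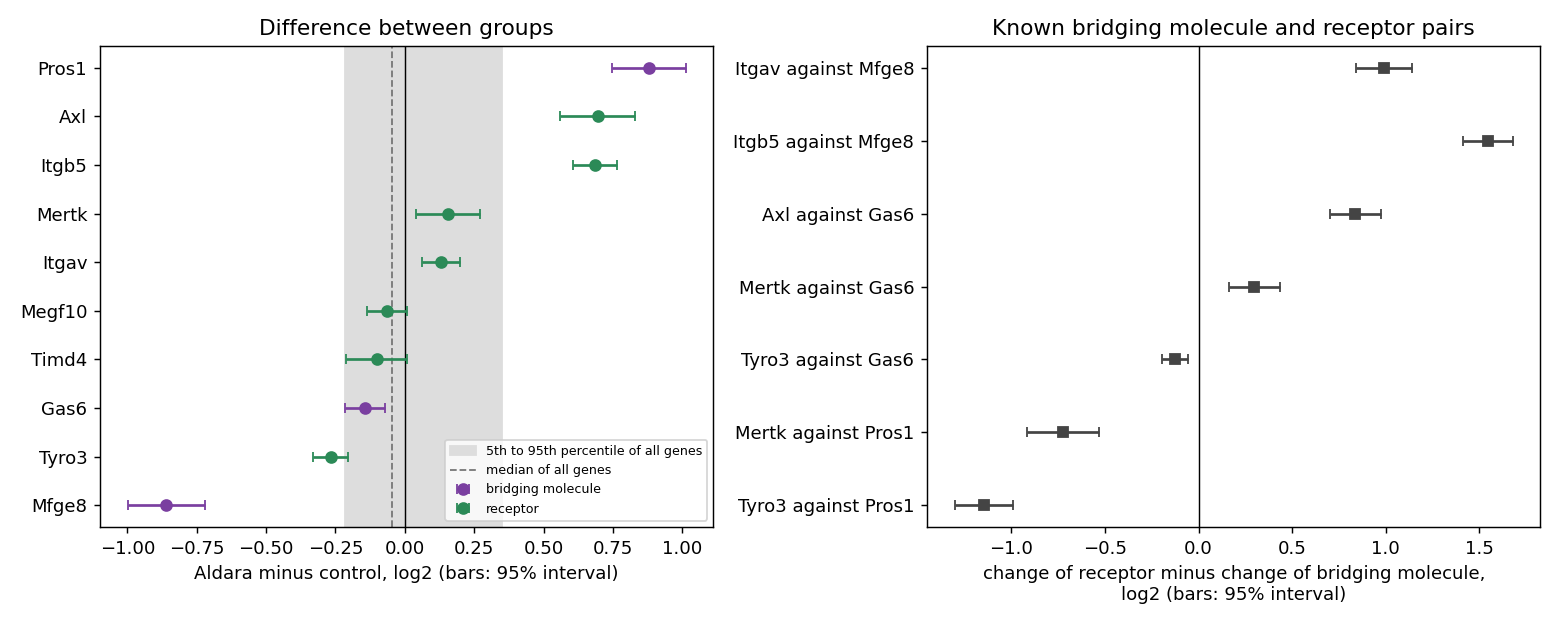
Left, the log2 difference between Aldara-treated and control mice of each bridging molecule (purple) and receptor (green) with its 95% interval, over a grey band from the 5th to the 95th percentile of all genes (-0.21 to 0.35). Right, the change of each receptor minus that of its bridging molecule, which is positive for Itgav and Itgb5 against Mfge8 and negative for both Pros1 receptors.

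Mice that stood apart for 1 gene did not do so for all. Aldara replicate 5 had the lowest Mfge8, Pros1 and Itgb5 of the Aldara-treated mice and the highest Axl and Gas6. Aldara replicate 1 had the highest Pros1 and Mertk. The groups were separate clusters of 5 mice each, and a relation between bridging molecules and receptors across mice was not tested.
The genes whose values followed Mfge8 most closely over the 10 arrays were Ttyh1, Dmwd, Lzts3, Dlgap2 and Pfn4, with Pearson's r of 0.991 to 0.995. Lzts3 and Dlgap2 encode proteins of the postsynaptic density. Their differences were smaller than that of Mfge8, from -0.41 for Ttyh1 to -0.21 for Dmwd. Those closest to Axl, the receptor with the largest difference, were Bst2, Parp3, Psmb8, Lgals3 and Tapbp, with r of 0.995 to 0.999. Bst2 encodes tetherin, which holds budding virus at the cell surface, and Psmb8 and Tapbp serve antigen presentation on MHC class I. They rose more than Axl, from 1.08 for Parp3 to 2.07 for Psmb8 on the log2 scale. Such an r over separate groups holds mainly the step between them, and it is given as a description.

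Marker genes of the cells that could carry these transcripts moved as well. The marker lists were chosen with earlier results of these data known, so their counts are descriptions. Of all genes, 11.8% were called higher and 22.4% lower. Of 14 astrocyte markers, 9 were lower and 3 higher. Slc1a2, the main glutamate transporter, was at -0.57 (standard error 0.04) and Gfap, the filament protein of reactive astrocytes, at 1.73 (standard error 0.04). The list mean, which includes Gfap, overlapped between the groups, at 10.80 to 10.87 in control mice and 10.75 to 10.87 in Aldara-treated mice. The median difference of the list was -0.17, against -0.05 over all genes, so the overlap is not read as an unchanged level of these markers. Markers of infiltrating monocytes and macrophages were higher for 11 of 13 genes and lower for none, with a list mean of 6.86 to 6.98 in control mice and 8.66 to 9.02 in Aldara-treated mice. Among brighter probesets, where fewer of these markers were tested, 5 were higher. Brightness was the mean over both groups, so high Aldara values alone could bring a marker in. Nothing is read from that count. The list mean was highest in Aldara replicate 5. Among them Lyz2, a lysozyme of these cells, was at 3.62 (standard error 0.09) and Clec12a, a myeloid lectin, at 3.28 (standard error 0.07). Of 11 microglia markers, 8 were higher and 2 lower, with a list mean of 8.64 to 8.80 against 8.98 to 9.21, and with Olfml3 at 1.10 (standard error 0.06) and Csf1r, the receptor that keeps microglia alive, at 0.84 (standard error 0.05). The lower ones, named after their values were seen, were Siglech, which encodes a sialic acid-binding lectin, at -0.77 (standard error 0.07), with 3 of the 19938 genes below it, and Gpr34, a lysophospholipid receptor, at -0.27 (standard error 0.03). Of 9 endothelial markers, 6 were higher and none lower, with list means of 9.61 to 9.74 against 9.97 to 10.13 and with Cdh5, the cadherin of endothelial junctions, at 0.88 (standard error 0.07). With equal array medians or without Aldara replicate 4, 1 was lower. Of 10 neuron markers, 8 were lower and none higher, led by Eno2 at -0.21 (standard error 0.03). With the median difference over all probesets set to 0, 4 neuron markers were lower, and without control replicate 1 or with the replicate number as a block, 5. The part of these cell types in the changes of Mfge8, Axl, Pros1, Itgb5 and Tyro3 was not tested.

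**Figure D3:**
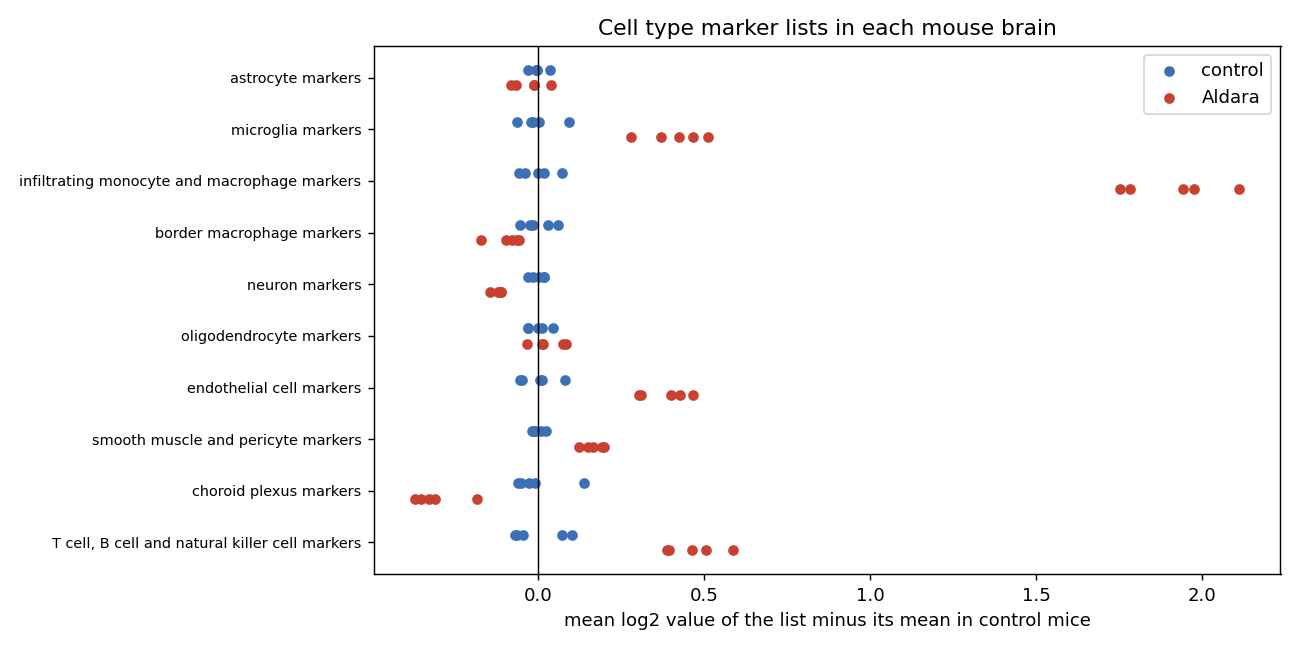
Mean log2 value of each cell type marker list, minus its mean in control mice, for each of 5 control mice (blue) and 5 Aldara-treated mice (red). Monocyte and macrophage markers lie furthest right, at 1.75 to 2.11. The astrocyte mean, which includes Gfap at 1.73, overlaps between groups, at -0.08 to 0.04 in Aldara-treated mice, although 9 of 14 astrocyte markers were lower.

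Further genes of apoptotic cell clearance were grouped by role, and their calls are limma's with Benjamini-Hochberg adjustment over all probesets tested. These lists were also chosen with earlier results of these data known. Their counts, shares and adjusted p-values are therefore descriptions and no independent test of the lists. Of all genes, 11.8% were called higher and 22.4% lower. Of 14 measured bridging molecules and opsonins outside the system, 7 were higher (50%), 2 lower (14.3%) and 5 not called. Their median difference was 0.21, against -0.05 over all genes. The C1q chains, which coat apoptotic cells and synapses and start the classical complement pathway, rose together, C1qa by 1.85 (standard error 0.05, adjusted p = 1.8e-10), C1qb by 1.81 (standard error 0.05, adjusted p = 6.6e-11) and C1qc by 1.89 (standard error 0.07, adjusted p = 1.5e-09). Edil3, whose product resembles MFGE8 in its domains and also links phosphatidylserine to integrins, was also lower, with a difference of -0.11 (standard error 0.03, adjusted p = 0.019). Tub, a proposed ligand of Mertk, was at -0.18 (standard error 0.03, adjusted p = 3.4e-04). With the array medians made equal, 6 were higher and 3 lower, and with the median difference set to 0, 9 and 1.
Of 23 further recognition receptors, 12 were higher (52.2%), 4 lower (17.4%) and 7 not called, with a median difference of 0.14. Itgam and Itgb2, the subunits of complement receptor 3, rose by 1.95 (standard error 0.09, adjusted p = 9.1e-09) and 2.19 (standard error 0.10, adjusted p = 1.1e-08), and Trem2, a lipid receptor of microglia, by 0.79 (standard error 0.05, adjusted p = 4.2e-07). The lower ones included the whole brain angiogenesis inhibitor family, whose first member Adgrb1 binds phosphatidylserine. Adgrb1 was at -0.22 (standard error 0.03, adjusted p = 4.0e-04), Adgrb2 at -0.24 (standard error 0.03, adjusted p = 4.8e-05) and Adgrb3 at -0.19 (standard error 0.03, adjusted p = 2.2e-04). Among brighter probesets only, 5 of these receptors were higher, but the dimmer receptors were not tested there. Brightness was the mean over both groups, so high Aldara values could bring a receptor in, and nothing is read from that count.
Of 22 measured genes of the engulfment machinery, 9 were higher (40.9%), 5 lower (22.7%) and 8 not called, with a median difference of 0.04. The lower share was near the 22.4% of all genes. Vav1, an exchange factor of haematopoietic cells, rose by 2.06 (standard error 0.08, adjusted p = 4.8e-09), Rac2, their Rac protein, by 2.02 (standard error 0.09, adjusted p = 1.1e-08) and Myh9, a myosin, by 0.68 (standard error 0.03, adjusted p = 8.3e-09). As the mean of all its probesets, Myh9 was at 0.39 (adjusted p = 4.8e-05 from limma). Src was at -0.17 (standard error 0.03, adjusted p = 0.0012), Elmo2 at -0.14 (standard error 0.03, adjusted p = 0.0020) and Trio at -0.13 (standard error 0.03, adjusted p = 0.0052). With equal array medians 7 were higher and 6 lower, and with the median difference set to 0, 10 and 3.

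**Figure D4:**
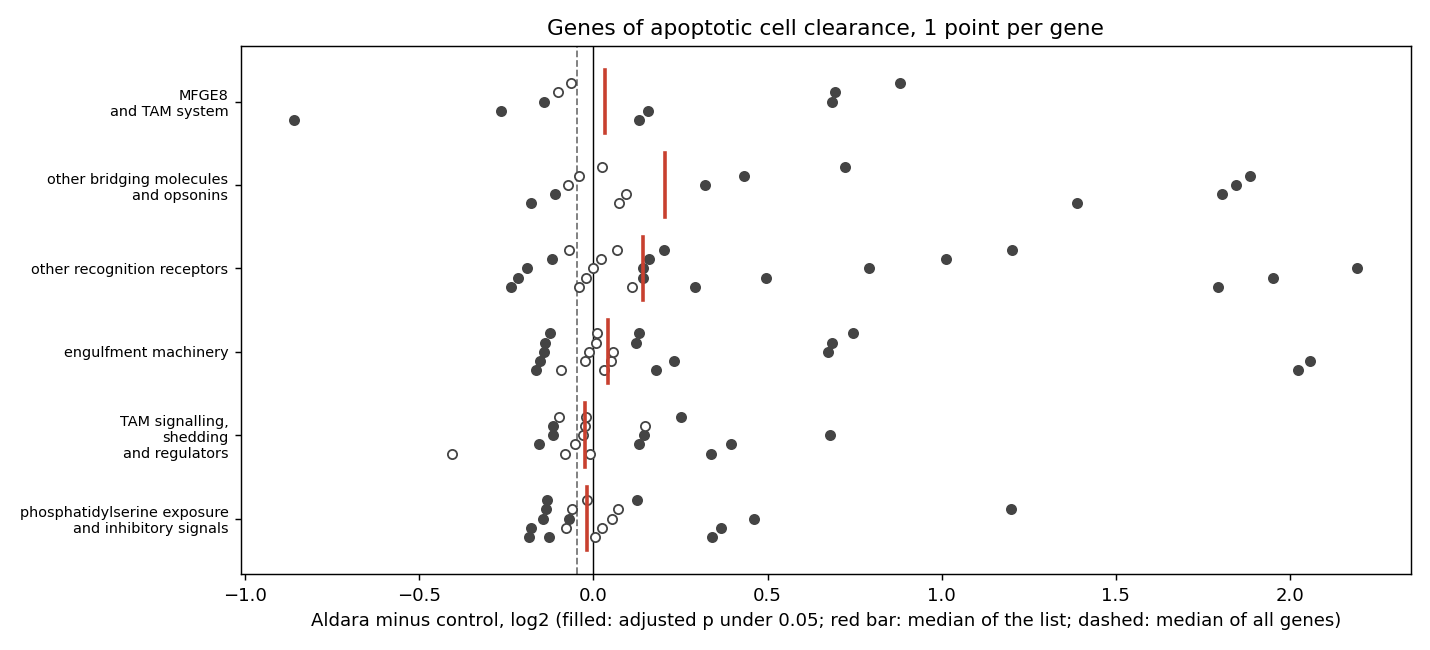
Log2 difference between Aldara-treated and control mice for each gene of the MFGE8 and TAM system and of 5 further lists of apoptotic cell clearance, filled where the adjusted p from limma was under 0.05. Red bars give the medians of the lists, from -0.02 to 0.21, and the dashed line that of all genes, -0.05.

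Of 18 measured genes that carboxylate, shed, signal from or regulate the TAM system, 6 were higher (33.3%), 3 lower (16.7%) and 9 not called. Their median difference was -0.02, and the lower share was under the 22.4% of all genes. Adam17 and Adam10, the proteases that shed Axl and Mertk from the cell surface, rose by 0.68 (standard error 0.04, adjusted p = 3.3e-07) and 0.25 (standard error 0.03, adjusted p = 2.1e-05). Ifnar1, the interferon receptor chain with which Axl cooperates, rose by 0.34 (standard error 0.04, adjusted p = 3.0e-05). Plcg1 was at -0.16 (standard error 0.03, adjusted p = 0.0036), Twist1, a repressor of cytokine genes downstream of Axl, at -0.12 (standard error 0.03, adjusted p = 0.011) and the retinoid receptor gene Rxrb at -0.12 (standard error 0.03, adjusted p = 0.017). The balance here depended on the scaling, with 4 higher and 7 lower when array medians were equal and 7 higher and 1 lower with the median difference set to 0. The calls of Twist1 and Rxrb were lost in the latter (adjusted p = 0.089 and 0.12 from limma), as was that of Edil3 above (adjusted p = 0.14 from limma).
Of 19 measured genes of phosphatidylserine exposure and of signals sent by dying or living cells, 5 were higher (26.3%), 7 lower (36.8%) and 7 not called. Their median difference was -0.02. P2ry6, the receptor through which microglia sense nucleotides from injured neurons, rose by 1.20 (standard error 0.05, adjusted p = 4.1e-09). Plscr1 rose by 0.46 (standard error 0.05, adjusted p = 1.2e-05) and the scramblase gene Ano6 by 0.37 (standard error 0.04, adjusted p = 5.1e-05). Xkr4, of the family of caspase-activated scramblases, was at -0.18 (standard error 0.03, adjusted p = 0.0012), and the flippase genes Atp8a2 and Atp11b were at -0.18 (standard error 0.04, adjusted p = 0.0024) and -0.13 (standard error 0.03, adjusted p = 0.0040). With equal array medians 4 were higher and 10 lower, and with the median difference set to 0, 5 and 3. Without control replicate 1 or 4 or Aldara replicate 4, 4 were lower.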

How the data were processed

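RNA of 10 perfused mouse brains, 5 control and 5 Aldara, was measured on Affymetrix GeneChip arrays, 1 for each mouse. The deposited log2 values were made by the authors with RMA in GeneSpring GX (named RMA 16 in the methods, which do not explain the number), a method that corrects background by a model, equalises the arrays' quantiles and combines the probes of a probeset, and that can shrink differences of dim genes. For library file and GeneSpring release, the entry is: not given in the sources used here. Scanner values were not used here, so background could not be judged. Values ran from 4.73 to 14.56. Of 28856 probesets, 21789 carried 1 symbol, 1621 several and 5446 none. Gene symbols are those of the platform annotation, some possibly outdated, and 21698 were matched by Entrez identifier to RefSeq on GRCm38.p6, with 0 updates. The 23410 probesets with a symbol were fitted with limma 3.58.1 in R 4.3.3 (lmFit, eBayes, no covariate, Benjamini-Hochberg, threshold 0.05), after a check on simulated arrays. Lists took 1 probeset per gene, that with the highest mean. Intervals of the gap between 2 genes came from the spread of their difference among mice. The 10 genes and all lists were chosen with earlier results of these data known.
Named are all 10 genes, up to 3 called members per list and direction, up to 2 per marker list by smallest p, and the 5 genes most correlated with Mfge8 and Axl. Beyond this, Itgb3, Siglech, Gpr34, Cd4, Cd3e and Cd79a were named after their values were seen. List genes not measured by a probeset with 1 symbol were not analysed here. Alternatives were 3 scalings, 3 choices of probesets, a trended robust prior, weights per array, a block for the replicate number, the methods' t-test, means of unlogged values, means over a gene's probesets, and leaving out each array. Brighter probesets were those whose mean over all 10 arrays was at or above the median of the tested ones. The number of arrays limits the precision, and no scan date was used.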

Additional observations from a re-analysis of the deposited data

Results flagged for a closer look

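In 5 of 50 groups of 5 mice examined, over the 10 genes and the list means, 1 mouse stood far from the others by Dixon's 95% criterion (a gap of over 0.71 of the range), which chance gives in about 1 in 20. Axl was 9.35 in control replicate 4 against 9.25 to 9.26 in the other control mice. Mertk was 9.37 in Aldara replicate 1 while the remaining Aldara-treated mice had 9.31 to 9.33. Megf10 was 8.74 in Aldara replicate 1 against 8.84 to 8.86. The mean of the further bridging molecules and opsonins was 9.38 in control replicate 1 against 9.40 in the others. The mean of the choroid plexus markers was 8.88 in control replicate 3 against 8.68 to 8.73.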

How the results depend on the processing

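All 10 genes kept their direction under every alternative that gave a value, and the 7 gaps between receptor and bridging molecule kept their sign. The difference of Mfge8 ran from -0.91 to -0.82 and that of Pros1 from 0.83 to 0.92. With the array medians made equal, lower probesets went from 4926 to 9606, lower genes of the system from 3 to 5, and lower genes of the TAM signalling and regulator list from 3 to 7. With the median difference set to 0, lower calls fell to 2760 probesets, to 1 for further bridging molecules, 3 for engulfment, 1 for TAM signalling and 3 for phosphatidylserine exposure. Among brighter probesets, where Pros1 and Timd4 were not tested, 5 further receptors were higher and 5 TAM signalling genes lower. Dimmer list genes were not tested there either, and brightness was taken over both groups, so these counts are no support. Leaving out 1 array gave 4 to 7 lower genes of phosphatidylserine exposure, and the call of Mertk was lost in 8 of 10 such fits. It was also lost with equal array medians, with all probesets tested and by the methods' t-test. The causes were not tested. No gene of the system had a further probeset. Control and Aldara arrays of 1 number correlated at -0.11 to 0.25 in their deviations, over 0.1 in 2 of 5 pairs. Of 10 arrays, 4 correlated best with their own number, those of replicates 1 (0.18) and 2 (0.25). With 5 pairs this cannot exclude a link by number, and the mice were not treated as paired. With the replicate block, 2701 probesets were higher and 4421 lower, the system's calls were kept, with Mfge8 at -0.86, and Rxrb lost its call (adjusted p = 0.053 from limma).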

Other observations

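Markers of other cell types were also called, where 11.8% of all genes were called higher and 22.4% lower. These lists too were chosen with earlier results of these data known, and their counts are descriptions. Of 7 choroid plexus markers, 4 were lower and none higher, with list means of 8.68 to 8.88 in control mice and 8.37 to 8.56 in Aldara-treated mice. Ttr, the thyroid hormone carrier, was at -0.82 (standard error 0.06) and Kl, the klotho gene, at -0.50 (standard error 0.06). With the array medians made equal, 7 were lower. Of 8 markers of border macrophages, 3 were lower and none higher, with Cbr2 at -0.27 (standard error 0.04) and Cd163, a haemoglobin scavenger receptor, at -0.20 (standard error 0.04). Their list means were 6.40 to 6.51 for control mice, against 6.28 to 6.40 for Aldara. None of the 3 was tested among brighter probesets, and without control replicate 4, or with the median difference set to 0, 1 marker was higher.
Of 10 smooth muscle and pericyte markers, 6 were higher and none lower (4 and 1 with equal array medians), among them Vtn at 0.28 (standard error 0.04) and Acta2, smooth muscle actin, at 0.29 (standard error 0.05). Of 9 oligodendrocyte markers, 3 were higher and 1 lower (2 and 2 with equal array medians), with Mbp, a main protein of myelin, at -0.21 (standard error 0.03) and Cldn11 at 0.29 (standard error 0.05), and 2 were lower without Aldara replicate 1. Without Aldara replicate 2, 1 smooth muscle and pericyte marker was lower. Of 9 markers of T cells, B cells and natural killer cells, 6 were higher and 1 lower, led by Gzma at 1.36 (standard error 0.09) and Nkg7 at 1.69 (standard error 0.15). The lower one was Cd4 at -0.32 (standard error 0.04), and Cd3e and Cd79a were not called. The pooled count therefore does not speak for each of these cell types. The brighter probesets held no marker of this list, and among them 2 smooth muscle and pericyte markers were higher.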
